A study of Mus musculus with 8 samples.

Results

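Oxidative phosphorylation is carried out by the electron transport complexes I to IV of the inner mitochondrial membrane and by the ATP synthase, complex V. Most of their subunits are encoded in the nucleus and imported, and a small set is encoded by the mitochondrial genome and made inside the organelle. In the embryonic forebrain, dividing progenitors are known to rely much on glycolysis, and neurons come to depend on oxidative phosphorylation as they mature. The genes described here are the 94 protein-coding genes of the deposited table, out of 16913 genes in all, whose symbols carry the names of these subunits: the Nduf a, b, c, s and v series, Sdha to Sdhd, the Uqcr series and Cyc1, Cox4 to Cox8, the Atp5 series, and the mitochondrial mt-Nd, mt-Co, mt-Cytb and mt-Atp genes. Nuclear genes made up 81 of them and mitochondrial-encoded genes 13. They were picked by symbol and gene type, with earlier results of these data known.

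RNA came from the lateral ganglionic eminence, the embryonic source of striatal projection neurons, dissected at embryonic day 14.5 from mice of mixed C57BL/6J and CD1 background. The 4 control samples were littermates of genotype Dlx5/6-Cre;Meis2F/+, and the 4 Meis2-CKO samples, called mutants here, were Dlx5/6-Cre;Meis2F/F. Both groups carried the Cre driver, which is expressed in the Dlx lineage of the ventral forebrain, and a floxed Meis2 allele, so the control is heterozygous after recombination and is no wild type; cells outside that lineage keep Meis2 in both groups. The values are the authors' mean signal per genotype, with no spread between embryos and at an unknown sequencing depth. The header does not name the unit; StringTie, named in the processing notes, reports values per transcript length, and levels are compared between genes here on the assumption that the signal is per length. All fold changes are log2 values of Meis2-CKO over control and all p-values are the authors'.

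Meis2 itself stood at 204 in controls and 140.4 in the mutants, a log2 fold change of -0.53 with an adjusted p of 0.00195 in the authors' deposited table. Markers were read beside the tissue label. A signal above 0 does not test that label, since no listed marker of any cell type was at 0. The 10 genes of the eminence and its GABAergic neurons had a summed signal of 940 in controls and 1046 in the mutants. Of these 10, 5 lay below 0 and 5 above by the log2 values of the authors' deposited table, and the 2 called, Ebf1 and Foxp1, were lower in the mutants. The sum hides opposite directions: Dlx1, Dlx2 and Dlx5 lay above 0, and Foxp2 and Gad2 below, each with an unadjusted p under 0.05 and none of them called. All 8 radial glia genes lay above 0 by the log2 values of the authors' deposited table, and their summed signal was 1618 in controls and 1831 in the mutants. The 5 cycling-cell genes summed to 847 and 985 and the 6 neuron genes to 1679 and 1519, in the same order. Of the 6 neuron genes, 4 lay below 0 and 2, Dcx and Map2, above by the same log2 values, and none was called. The sums were 138 and 159 for 5 pallial genes, 40.0 and 40.7 for 5 endothelial genes, 31.8 and 33.2 for 5 microglial genes, 3013.5 and 3035 for 7 erythroid genes, and 3.29 and 1.45 for 4 meningeal genes, and no member of these lists was at 0. Y-linked Eif2s3y (50.5 and 14.0) was called as lower in the mutants, with an adjusted p of 1.02e-16 in the authors' deposited table. Xist (78.0 and 256) also differed between the means but was not called, and the labels give no sex. The part of these differences in any value below was not tested, and in dissected tissue fewer cells of a type and less RNA per cell cannot be told apart.

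No subunit gene passed the threshold in either direction. In the authors' deposited table all 94 had the same adjusted p, 0.999987, beside 0.78% of all genes called at an adjusted p of 0.05, 0.237% as higher in the mutants and 0.544% as lower. At an adjusted p of 0.1 the table called 0.828% of genes, and with the Benjamini-Yekutieli adjustment of the same p-values 0.627%, and again no subunit was among them. Without adjustment, none of the 94 p-values of the authors' deposited table was under 0.05, beside 2.17% of all genes, with 1.34% of all genes both under 0.05 and lower in the mutants. Under 0.1 there were 2 of the 94, mt-Nd3 (0.0596) and mt-Co3 (0.0945), beside 3.17% of all genes in the authors' deposited table. These p-values lean high over the whole table (median 0.760 for all genes, 0.714 for the 94), so the lack of a call does not show that a gene was unchanged.

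Nuclear subunits differed little between the genotype means. Their median log2 fold change was -0.017 in the authors' deposited table, with quartiles at -0.052 and 0.027, beside a median of 0.012 for all 16913 genes. Of the 81, 70 (86.4%) lay within 0.1 of 0 by the log2 values of the authors' deposited table and 80 (98.8%) within 0.2. For the 3393 other protein-coding genes whose mean was at least 30 the same shares were 74.6% and 93.99%. For the 73 nuclear subunits with such a mean they were 86.3% and 100%. These sets are not matched on level: the median control signal was 53.4 for the 3393 genes and 110 for the 73. The part of level in the difference of shares was not tested. The gene outside 0.2 was Cox7a1, at the bottom of the signal range. By sign, 45 nuclear subunits (55.6%) lay below 0 and 36 above in the authors' deposited table, and 52 lay below the median of all genes. Of all genes 46.7% lay below 0, and of the other protein-coding genes with a mean of at least 30, 40.6%. The sign counts of the paragraphs below have the same base. The summed signal of the nuclear subunits was 10705 in controls and 10529 in the mutants, a ratio of 0.984.

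**Figure D1:**
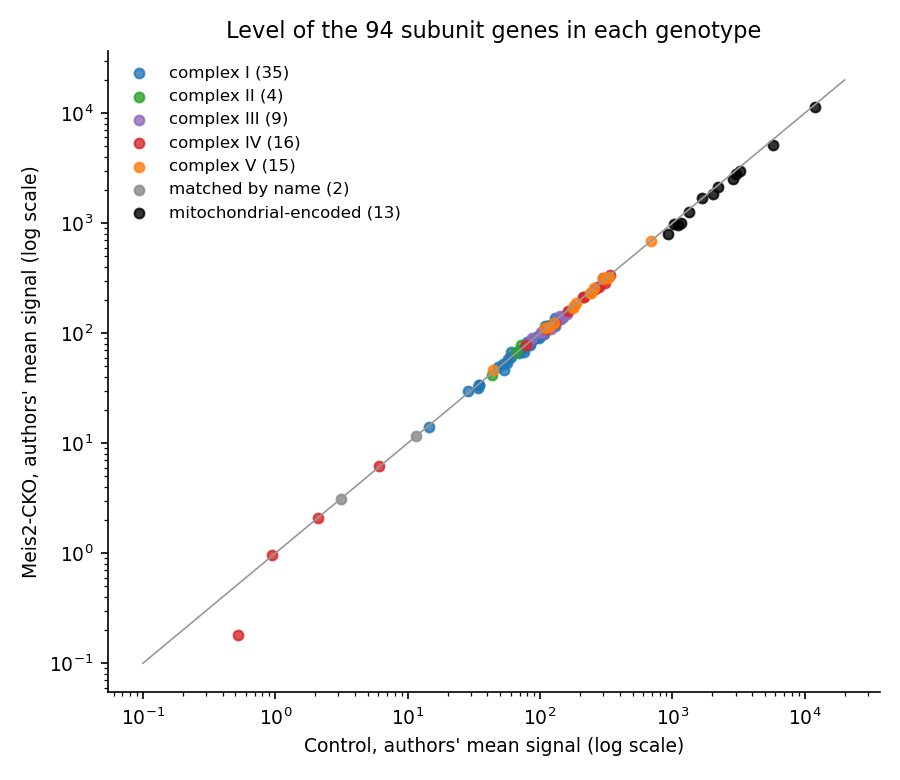
Authors' mean signal of each of the 94 genes in control (horizontal, log scale) and Meis2-CKO (vertical, log scale), coloured by complex; the line marks equal means. The 13 mitochondrial-encoded genes form the upper cluster, from 922 upward in control, and the points lie along the line except Cox7a1 at the lower left (0.525 and 0.183).

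Mitochondrial-encoded subunits had slightly lower means in the mutants. Their median log2 fold change was -0.099 in the authors' deposited table, 0.082 below the nuclear median, and 12 of the 13 lay below 0, with mt-Atp6 as the exception. Of the 13, 12 lay below the nuclear median, and 8 of the 81 nuclear genes lay below the mitochondrial-encoded median. Their summed signal was 38165 in controls and 35492 in the mutants, a ratio of 0.930, and it made up 6.97% and 6.53% of the signal of the table. The whole table summed to 547952 in controls and 543246 in the mutants. The 13 transcripts come from shared precursors and are no independent measurements, and the difference between nuclear and mitochondrial-encoded genes rests on pooled means with no replicate check.

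**Figure D2:**
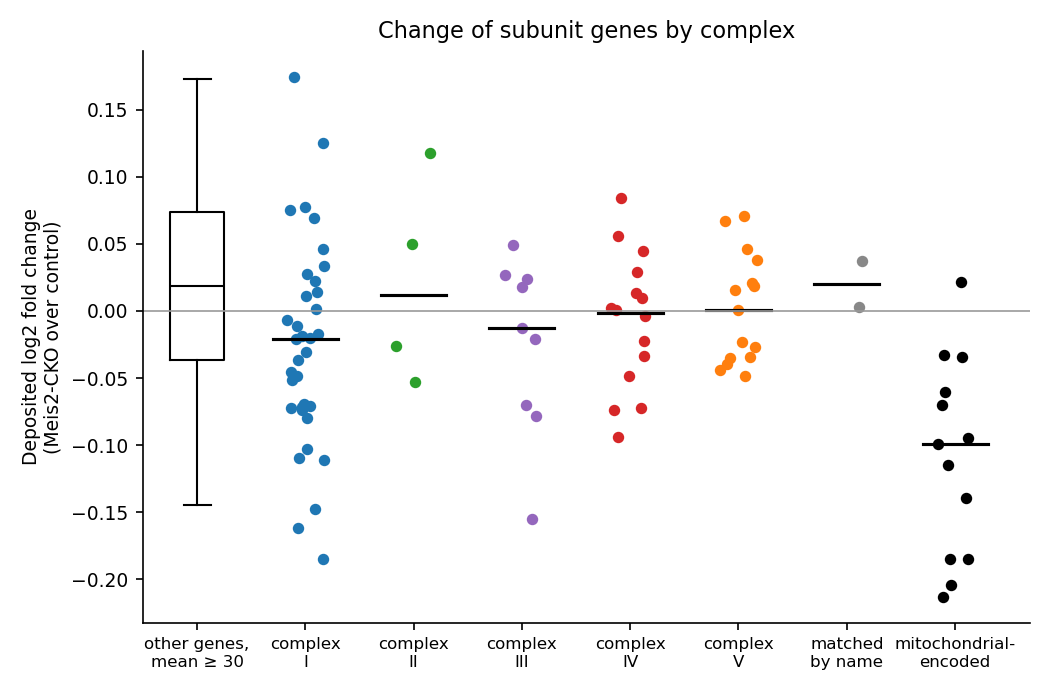
Log2 fold change (Meis2-CKO against control) from the authors' deposited table for each subunit gene, with a bar at the median of each group and, at the left, a box (quartiles, median, whiskers at the 5th and 95th percentiles) for other protein-coding genes with a mean of at least 30. Cox7a1 (-1.07) lies off the axis and is not drawn; the mitochondrial-encoded genes are centred at -0.099 and the nuclear complexes near 0.

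Complex I, the NADH dehydrogenase that passes electrons to ubiquinone, contributed 35 nuclear genes, with control means from 14.6 (Ndufa11) to 148 (Ndufa2). Their median log2 fold change was -0.021 in the authors' deposited table, with 23 below 0 and 12 above. The nuclear genes of the complex summed to 2857 in controls and 2782 in the mutants.

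The widest differences of complex I were in accessory subunits. Ndufa10 (chromosome 1, 92439010 to 92473860, GRCm38) had the lowest log2 fold change, -0.18, by the authors' deposited table, with means of 53.2 in controls and 46.4 in the mutants (p = 0.202). Ndufb6 (chromosome 4, 40270591 to 40279421) had the highest, 0.17, in the authors' deposited table, with means of 60.1 and 67.3 (p = 0.180). They lay on opposite sides of 0, and neither was called. Ndufb8, a membrane-arm subunit, stood at 129 and 116, with the smallest p of the complex in the authors' deposited table (0.175). The Ndufb genes as a series, accessory subunits of the membrane arm, had a median of -0.071 in the authors' deposited table, with 8 of 10 below 0. The median in the authors' deposited table was -0.025 for the 12 Ndufa genes of the complex and -0.00024 for the 8 Ndufs genes. It was -0.020 for the 3 Ndufv genes and 0.056 for the 2 Ndufc genes. The 7 core nuclear genes had a median of 0.011, with 5 above 0, by the same log2 values. For the 28 accessory genes it was -0.041, with 21 below 0. Exons of Ndufb2, Ndufb5 and Ndufb6 overlap those of other listed genes by over 100 bases, and whether reads were counted by strand is not stated.

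Complex II, succinate dehydrogenase, which also serves the tricarboxylic acid cycle and has only nuclear subunits, was even-sided. The flavoprotein Sdha stood at 72.1 in controls and 77.6 in the mutants, a log2 fold change of 0.12 in the authors' deposited table (p = 0.336). The iron-sulfur subunit Sdhb stood at 109.9 and 107, and the membrane anchors at 43.6 and 41.7 for Sdhc and at 66.2 and 67.9 for Sdhd. The 4 genes summed to 292 and 294, so the sum was nearly level while Sdha and Sdhc lay on opposite sides of 0.

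Complex III, the cytochrome bc1 complex that passes electrons from ubiquinol to cytochrome c, had 9 nuclear genes with control means from 81.6 to 269. The redox subunits Cyc1 (101 in control, 102 in the mutants) and the Rieske protein Uqcrfs1 (81.6 and 81.9) were nearly level. The hinge protein Uqcrh had the highest signal, 269 and 265. Uqcrq, a small accessory subunit (chromosome 11, 53427922 to 53430831), had the lowest log2 fold change of the complex, -0.15, in the authors' deposited table, with means of 122 and 108 (p = 0.173). Uqcrc1, a core-fold subunit with no redox centre, had the highest, 0.049, in the authors' deposited table, with means of 87.3 and 89.5.

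Complex IV, cytochrome c oxidase, passes electrons to oxygen; its nuclear subunits surround a mitochondrial-encoded core, and several exist as tissue isoforms. Ndufa4 was counted here, since it is now placed in this complex despite its name. The 16 genes had a median log2 change of -0.0017 in the authors' deposited table, with 8 on each side of 0; 11 lay below the median of all genes. Cox6b1 had the highest signal, 334.8 in both genotypes to the first decimal. Cox6a1 (chromosome 5, 115345642 to 115348981) had the smallest p of the complex in the authors' deposited table (0.286), with means of 309 and 287 and a log2 fold change of -0.094. Cox8a had the highest log2 fold change, 0.084 by the authors' deposited table, among the genes above a mean of 1, with means of 300.8 and 316.

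Isoform shares in complex IV were close in the means of both genotypes. The widely expressed Cox4i1 stood at 304 in controls and 301 in the mutants, while Cox4i2, known from lung and for its response to oxygen, stood at 0.940 and 0.965, or 0.308% and 0.319% of the pair. Cox6b1 likewise far exceeded the testis isoform Cox6b2 (6.03 and 6.22, or 1.77% and 1.82% of the pair). In each of these families one gene held nearly all of the signal. The heart and muscle isoform Cox7a1 stood at 0.525 and 0.183 beside 161 and 158 for Cox7a2 and 112 and 108 for Cox7a2l, which acts in supercomplex assembly; its log2 fold change of -1.07 in the authors' deposited table (p = 0.410) rests on those low values. Ndufa4 stood at 213 and 212 and its hypoxia-linked relative Ndufa4l2 at 2.11 in both. Cox5a (212 and 214) and Cox5b (129.96 and 123) are different subunits and not isoforms of each other.

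**Figure D3:**
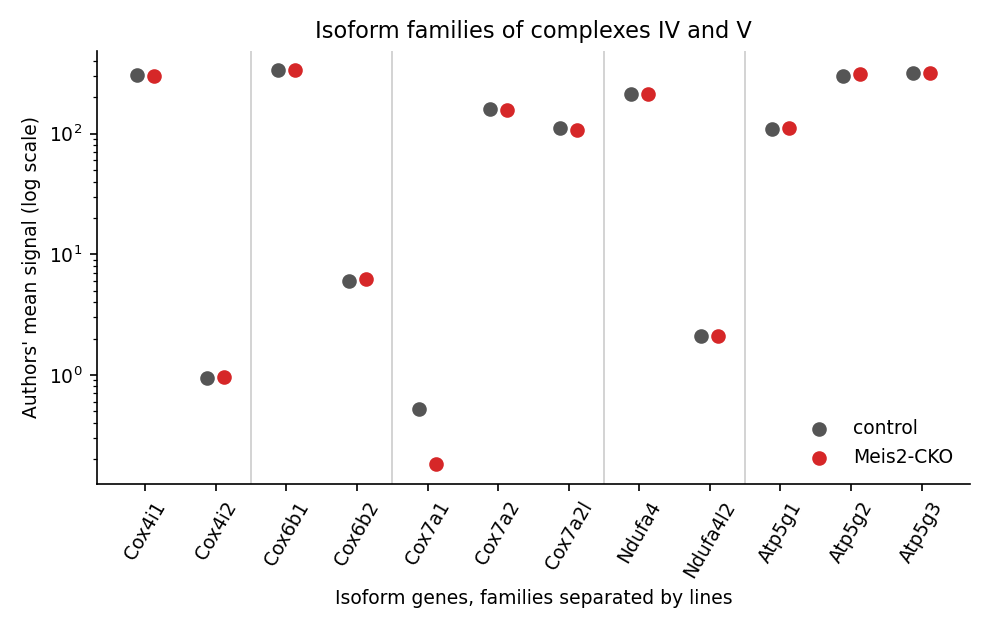
Authors' mean signal (log scale) in control (grey) and Meis2-CKO (red) for isoform genes of complexes IV and V, with families separated by lines. One gene dominates the Cox4, Cox6b and Ndufa4 families in both genotypes, Cox7a2 and Cox7a2l share the third family above Cox7a1, and all 3 Atp5g genes lie above 100.

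Complex V makes ATP with the proton gradient and had the highest nuclear signal, a median of 237 in controls and 231 in the mutants over 15 genes. All 15 lay within 0.1 of 0 by the log2 values of the authors' deposited table, with a median of 0.00069. Atp5b, the catalytic beta subunit (chromosome 10, 128083273 to 128090391), had the highest signal of all nuclear subunits, 683 in controls and 687 in the mutants. Its partner in the catalytic hexamer, Atp5a1, stood at 312 and 319. Atp5g2, described with its isoforms, had the smallest p of the complex (0.421) in the authors' deposited table. Atp5e, the epsilon subunit, had the lowest signal of the complex, 44.4 and 46.2, and the highest log2 fold change, 0.071, by the authors' deposited table (p = 0.640). Atp5l, a membrane subunit, had the lowest, -0.048, in the authors' deposited table, with means of 243 and 234 (p = 0.688). Atp5s (3.16 and 3.14) and Atp5sl (11.5 and 11.7) match the name rule but are not structural subunits of the enzyme.

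The c subunit forms the rotating ring of the ATP synthase and is encoded by 3 genes whose mature products are alike. Their signal was spread unequally: Atp5g1 stood at 109.7 in controls and 112 in the mutants, Atp5g2 at 299 and 310.4, and Atp5g3 at 319 and 316. Atp5g1 gave 15.1% of the family in both genotypes, Atp5g2 41.1% and 42.1%, and Atp5g3 43.8% and 42.8%. The last 150 coding bases before the stop codon, from GENCODE M21 transcripts, are shown because they bear on whether reads of the 3 genes can be told apart; capitals mark the 39 positions at which the genes differ.
Atp5g1: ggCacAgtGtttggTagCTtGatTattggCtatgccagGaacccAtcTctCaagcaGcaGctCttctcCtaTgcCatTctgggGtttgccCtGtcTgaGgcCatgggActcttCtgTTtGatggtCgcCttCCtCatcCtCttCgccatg
Atp5g2: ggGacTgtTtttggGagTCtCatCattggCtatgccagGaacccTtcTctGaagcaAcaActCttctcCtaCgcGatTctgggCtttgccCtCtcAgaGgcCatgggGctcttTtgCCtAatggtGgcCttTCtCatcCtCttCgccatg
Atp5g3: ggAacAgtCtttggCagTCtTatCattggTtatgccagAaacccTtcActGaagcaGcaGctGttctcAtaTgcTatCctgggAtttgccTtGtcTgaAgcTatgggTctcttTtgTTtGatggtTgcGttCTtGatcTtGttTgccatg
In this stretch Atp5g1 and Atp5g2 were identical at 84% of positions, with a longest shared run of 20 bases, and Atp5g2 and Atp5g3 at 78%, with a longest run of 8. Differences were thus dense, although processed copies of Atp5g1 (Gm10039, 2.41 and 4.08) and of Atp5g2 (Gm10175, 4.39 and 5.48), identical over 99.8% and 100% of the coding sequence, were also listed at low signal.

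The mitochondrial genome encodes membrane-embedded cores of complexes I, III, IV and V. The highest deposited signal of all 16913 genes was that of mt-Atp8, a small subunit of the ATP synthase membrane part (mitochondrial genome, 7766 to 7969), at 11874 in controls and 11320 in the mutants. It alone made up 31.1% and 31.9% of the summed signal of the 13 genes. It is the shortest of them, with 204 bases, and its last 43 bases are also the first 43 of mt-Atp6 (7927 to 8607), printed here in capitals because reads there cannot be assigned to one gene.
mt-Atp8: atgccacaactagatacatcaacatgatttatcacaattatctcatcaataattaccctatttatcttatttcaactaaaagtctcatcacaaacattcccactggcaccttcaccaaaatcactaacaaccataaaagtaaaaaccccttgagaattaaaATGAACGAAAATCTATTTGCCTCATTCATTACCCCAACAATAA
Multiplied by length in kb, a rough stand-in for reads, mt-Atp8 gave 8.01% of the control total of the 13 genes behind 4 other genes, and mt-Co1 came first with 29.3%. mt-Atp6, the proton-channel subunit, stood at 1673 and 1690.4 and was the mitochondrial-encoded gene above 0, with a log2 fold change of 0.022 in the authors' deposited table (p = 0.899). A shorter overlap, of 7 bases, joins mt-Nd4l and mt-Nd4, and 14 bases are shared by mt-Nd5 and mt-Nd6 on opposite strands.

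All 7 mitochondrial complex I genes, which form the proton-pumping membrane arm, lay below 0, their median log2 fold change being -0.11 in the authors' deposited table. mt-Nd1 stood at 3004 in controls and 2792 in the mutants, mt-Nd2 at 1335 and 1264, and mt-Nd4 at 2014 and 1846. mt-Nd5 (1170.05 and 1001) had the lowest log2 fold change of the 13 genes, -0.21, in the authors' deposited table (p = 0.205). mt-Nd6, the one gene of the set read from the other strand, stood at 1110 and 955, with a value of -0.20 in the authors' deposited table, close to that of its neighbour mt-Nd5. mt-Nd3 (922 and 804) had a log2 fold change of -0.18 with the smallest p (0.0596), and mt-Nd4l (1022 and 990.4) one of -0.034, in the authors' deposited table. The 7 genes summed to 10575 and 9653, beside the sum of the nuclear genes of the complex given above.

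In complex IV, the catalytic subunit mt-Co1 stood at 5743 in controls and 5178 in the mutants, a log2 fold change of -0.14 in the authors' deposited table (p = 0.201). mt-Co3 stood at 2885 and 2523 with a value of -0.19 in the authors' deposited table (p = 0.0945), and mt-Co2, which receives electrons from cytochrome c, at 2202 and 2148 with -0.033. These 3 genes summed to 10830.4 and 9849, while the nuclear complex IV genes summed to 2708 and 2658. mt-Cytb, the only mitochondrial subunit of complex III, stood at 3213 and 2980.3 with a log2 fold change of -0.099 in the authors' deposited table (p = 0.306). Both mitochondrial ribosomal RNA genes, which are no subunits, lay on the same side: mt-Rnr1 stood at 274 and 241 and mt-Rnr2 at 308 and 273, each with a log2 fold change of -0.17 in the authors' deposited table and neither called.

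Near-identical nuclear copies were listed for 7 of the mitochondrial-encoded genes, and these copies carried a large share of the signal. A search of coding sequences against the transcripts of all listed genes (at least 95% identity over at least 100 bases) found 8 such copies, all but Gm13340 between 24611535 and 24616197 on chromosome 1. The 8 copies summed to 15593 in controls and 14748 in the mutants. mt-Co2 shares its whole coding sequence with Gm28661, which stood at 4666 and 4351, above mt-Co2 itself. mt-Nd4l and Gm10222 (2812 and 2521), and mt-Atp6 and Gm10925 (3214 and 2932), were identical over their whole length too. For these 3 genes the copy held 67.9%, 73.4% and 65.8% of the joint control signal. Reads from identical stretches cannot be assigned to one of a pair, so the single values of these genes are uncertain.

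Adding each gene to its copies narrowed the range. As log2 ratios of the authors' means, the 7 genes alone ran from -0.20 (mt-Nd3) to 0.015 (mt-Atp6), and gene plus copies ran from -0.13 (mt-Nd4) to -0.066 (mt-Nd3). Gm29216 covers only 31.1% of the mt-Co1 coding sequence and Gm28439 only 63.6% of that of mt-Nd4. The sums of these 2 genes thus join stretches of unlike length. For mt-Nd3 the gene stood at -0.20 and its copy Gm28438 at 0.14 (524 in control, 576 in the mutants), and their sum was 1445 and 1380.4. The sum of mt-Atp6 and Gm10925 was 4888 in controls and 4622 in the mutants, a log2 ratio of -0.081, so the gene that lay above 0 alone lay below 0 with its copy. The mt-Co3 ratio moved from -0.19 to -0.11 when Gm28437 (3352 and 3274) was added. All 13 genes plus the copies summed to 53758 and 50240.4, a ratio of 0.935, beside 0.930 for the genes alone. The 6 genes without a listed copy were mt-Nd1, mt-Nd2, mt-Nd5, mt-Nd6, mt-Cytb and mt-Atp8. Their median log2 change was -0.097 in the authors' deposited table, beside -0.099 for all 13 genes. Copies were sought only among listed genes. The last 43 bases of mt-Atp8 are also the start of mt-Atp6, which Gm10925 copies. These 6 genes are thus not shown to be free of copies.

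**Figure D4:**
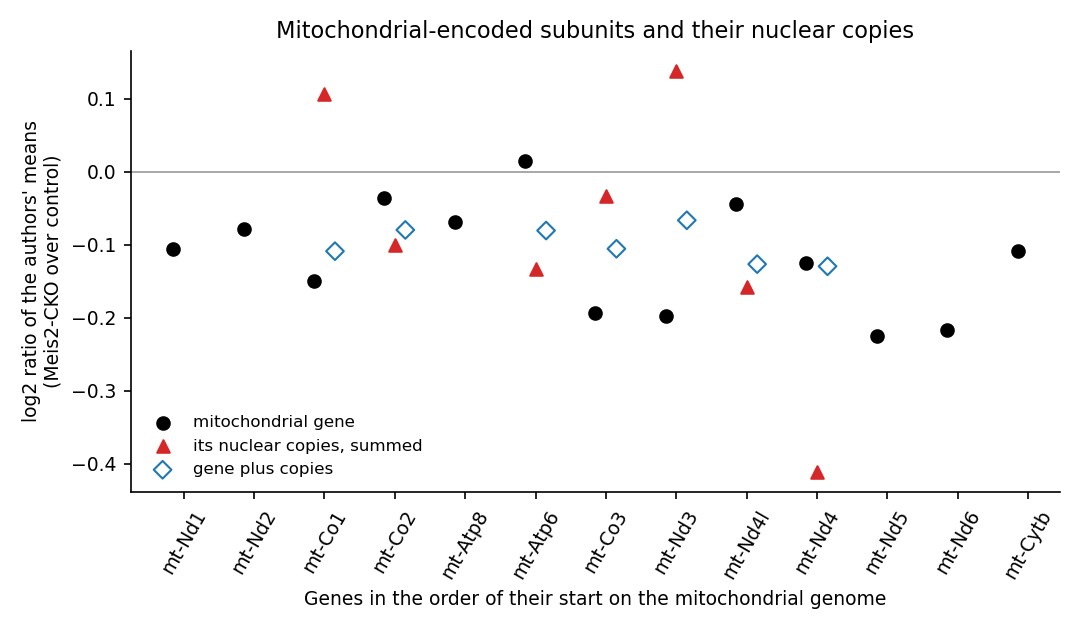
Log2 ratio of the authors' means, Meis2-CKO over control, for the 13 mitochondrial-encoded subunits in genome order (black), the summed nuclear copies of 7 of them (red triangles) and gene plus copies (open diamonds). The diamonds lie between -0.13 and -0.066, closer together than the genes or the copies alone.

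Many nuclear subunit genes are known to be driven by nuclear respiratory factor 1, encoded by Nrf1, and by YY1. Nrf1 stood at 35.5 in controls and 38.2 in the mutants, with a log2 fold change of 0.12 in the authors' deposited table (p = 0.481). RefSeq promoter windows (GRCm38.p6, 250 bases before to 50 after the start) were found for 67 of the 81 nuclear genes. The core of the NRF1 motif, whose letters are the capitals in the sequences of the next paragraph (with 1 free base right after the first A, or the reverse complement), was searched on both strands and was present for 17 of the 67 (25.4%). It was present for 11.2% of protein-coding genes of the table with a window, for 16.0% of other protein-coding genes whose mean was at least 30, and for 5.19% of all genes with one. The longer YY1 core, searched by the same rule, was present for 6 of the 67 (8.96%), beside 2.24%, 3.53% and 0.995% in the same 3 sets. The shorter YY1 letters CAAGATGG, which can overlap the longer core, were present for 7 (10.4%), beside 3.21%, 5.14% and 2.42%. Genes with the NRF1 core had a median log2 fold change of -0.027 in the authors' deposited table and the 50 without it one of -0.012, so both sets lay near 0. A match describes letters and is no evidence of binding.

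Only 17 of the 67 genes with a window held an NRF1 core. As examples among these 17, the windows with at least 2 cores wholly before the start are printed. They are shown as the 250 bases upstream in the direction of transcription, with the cores in capitals. They belong to Cox6a1 (chr5:115348959-115349208, minus strand), Ndufb4 (chr16:37654369-37654618, minus strand), a complex I accessory subunit at 33.9 in controls and 31.9 in the mutants, and Sdha (chr13:74350241-74350490, minus strand).
Cox6a1: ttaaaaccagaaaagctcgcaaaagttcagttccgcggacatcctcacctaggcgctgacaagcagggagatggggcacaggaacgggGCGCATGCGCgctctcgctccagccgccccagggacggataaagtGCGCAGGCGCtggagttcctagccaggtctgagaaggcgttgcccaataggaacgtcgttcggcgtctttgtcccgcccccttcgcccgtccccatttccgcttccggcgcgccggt
Ndufb4: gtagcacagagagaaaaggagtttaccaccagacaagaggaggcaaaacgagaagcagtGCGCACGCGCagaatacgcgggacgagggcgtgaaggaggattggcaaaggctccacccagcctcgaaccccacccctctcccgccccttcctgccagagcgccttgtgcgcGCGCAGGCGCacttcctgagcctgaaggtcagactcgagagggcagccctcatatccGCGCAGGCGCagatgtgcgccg
Sdha: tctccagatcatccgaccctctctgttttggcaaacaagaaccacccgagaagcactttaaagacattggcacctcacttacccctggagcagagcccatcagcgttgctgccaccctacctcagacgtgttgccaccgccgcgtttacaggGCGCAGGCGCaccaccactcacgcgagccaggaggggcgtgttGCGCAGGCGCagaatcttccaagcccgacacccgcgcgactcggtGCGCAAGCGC
Cox6a1 held 2 cores and Ndufb4 and Sdha 3 each, the nearest of them 10 bases before the start in Sdha. Cox6a1 and Sdha lay on opposite sides of 0 in the authors' deposited table.

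Other genes of the pathway, in lists set by function, gave no call either, beside the 0.78% called over the table. Of 42 assembly factors of the respiratory chain, which build and insert cofactors, none passed and 27 lay below 0, with a median log2 change of -0.043 in the authors' deposited table; Acad9, a complex I assembly factor, had the smallest p (0.0970) with means of 28.3 in controls and 34.6 in the mutants. The 14 genes of mobile carriers and exchange had a median of -0.0065 in the authors' deposited table. Cycs, the cytochrome c gene, stood at 59.2 and 57.9, and the ADP/ATP carrier genes stood at 320.1 and 353 for Slc25a5 and at 179 and 170.1 for Slc25a4. None of the 16 tricarboxylic acid cycle genes passed (median 0.018 in the authors' deposited table), and fumarase, Fh1, had their smallest p, with means of 26.7 and 29.6.

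Glycolytic genes, the other source of ATP, had a median of 0.016 over 19 genes in the authors' deposited table, and none passed. Pfkp, a phosphofructokinase isoform, had an unadjusted p of 0.0126 in the authors' deposited table and stood at 27.0 in controls and 18.3 in the mutants. The 13 genes of mitochondrial DNA maintenance and transcription had a median of -0.014 in the authors' deposited table. Among them the mitochondrial transcription factor Tfam stood at 35.9 and 37.8, the polymerase Polrmt at 17.9 and 17.0, and Tfb2m, which had the smallest p of the list, at 16.1 and 13.01. Lrpprc, which stabilises mitochondrial messenger RNA, stood at 22.2 and 23.5. Of 10 listed regulators none passed; Ppargc1a stood at 2.38 and 2.26, and Myc at 12.1 and 6.98 (unadjusted p = 0.0195 in the authors' deposited table). The 78 mitochondrial ribosomal protein genes summed to 2823 and 2820.2 and had a median of 0.0064 in the authors' deposited table, and Mrpl19, with their smallest p, stood at 12.6 and 15.6.

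**Figure D5:**
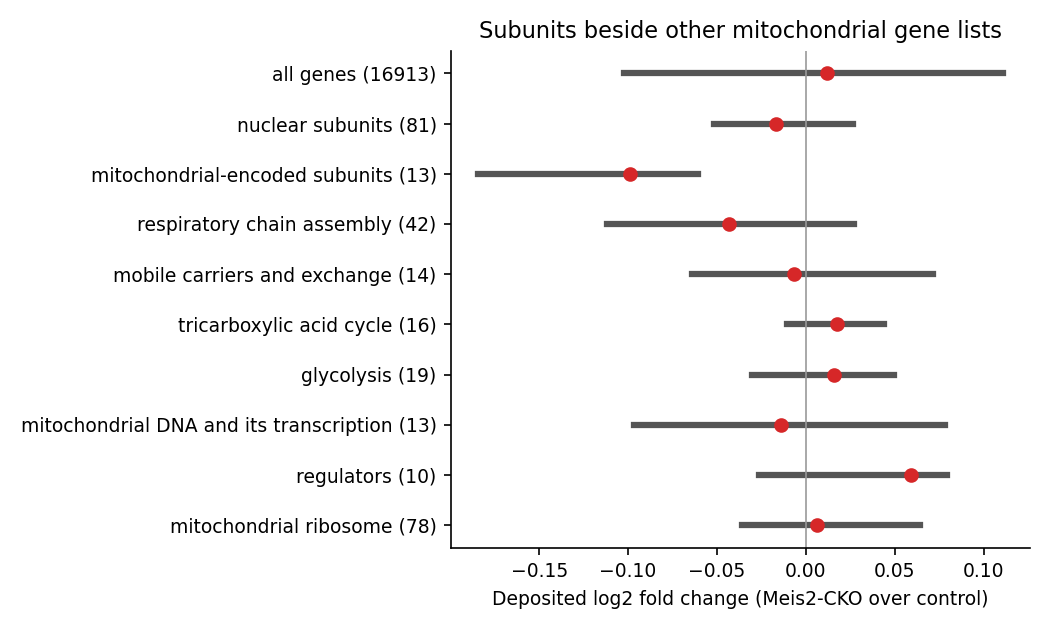
Median (red) and quartile range (grey bar) of the log2 fold changes (Meis2-CKO against control) in the authors' deposited table for all genes, both subunit groups and 7 other lists, with the number of genes in brackets. The mitochondrial-encoded subunits have the lowest median (-0.099), and their bar lies wholly below 0.

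The X-linked subunits Ndufa1 (96.2 in control, 93.4 in the mutants), Ndufb11 (87.0 and 87.1) and Cox7b (79.0 and 78.1) were close to level, with a median log2 change of -0.0039 in the authors' deposited table, beside the differences in Xist and Eif2s3y given above. The 81 nuclear genes lay on 19 chromosomes, with chromosome 14 holding none.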

How the data were processed

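RNA of 8 lateral ganglionic eminence samples was sequenced, and 1 table of 16913 genes was used. Its signal columns are means per genotype, made by the authors, per the file headers, which name no unit. The table's log2 fold changes were deposited by the authors, as were its p-values, raw and adjusted. The adjusted ones equal a Benjamini-Hochberg adjustment over all genes. The test behind them was not given in the sources used here. FastQC 0.11.5, HISAT2 2.1.0, StringTie 1.3.1 and the builds GRCm38.p2 and mm10 are named, without roles, in the submitters' processing notes. The table also has 8 columns of library values whose names match no sample label, and these were not used in any step, so no fit across libraries was run and the depth is unknown.

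Members were found by symbol and type and assigned to complexes by hand. The members, lists and tests were chosen with earlier results of these data known. Named are all mitochondrial-encoded genes, for each nuclear complex the genes with the highest control mean, smallest p, largest rise and largest fall (mean of at least 1 in both), the isoform families, and for each pathway list the gene with the smallest p. Other genes named were chosen after their values were seen. Places and lengths came from GENCODE M21 (GRCm38), matched by Ensembl ID for all 94. Copies were sought with blastn 2.17.0. Motifs were counted in RefSeq windows matched by gene ID. Adjustment and motif search were tested on simulated data. Python 3.11.15, pandas 2.3.3, numpy 2.4.6 and matplotlib 3.10.9 were used. Alternatives were other thresholds and adjustments, minimum means, a pseudocount of 1, centring, rescaling and the removal of doubtful members.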

Additional observations from a re-analysis of the deposited data

How the results depend on the processing

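The counts of called genes, 0 of 81 nuclear and 0 of 13 mitochondrial-encoded, were also 0 at an adjusted p of 0.1, at an unadjusted p of 0.05 and with the Benjamini-Yekutieli adjustment of the authors' p-values. Of 42 alternatives in all, 30 left a value within 0.005 of the one reported and 12 moved it by more. None changed the sign of a median. The tally is no measure of robustness, because some alternatives could not move their value. Minimum means and the removal of nuclear genes left out no mitochondrial-encoded gene, and removing mitochondrial pairs left out no nuclear gene. Centring cannot change a difference of medians, and rescaling cannot change the ratio of the mitochondrial-encoded to the nuclear sum. The Benjamini-Yekutieli adjustment cannot add calls. The nuclear median log2 fold change became -0.0283 with a pseudocount of 1, -0.0287 centred on all genes, -0.0228 rescaled to equal sums without mitochondrial-encoded genes, -0.0114 without genes that have a listed copy, and -0.00647 without genes whose exons overlap another listed gene. The last 2 were chosen after seeing the data, as was a mean of at least 30. The mitochondrial-encoded median became -0.108 with the pseudocount, -0.111 when centred and -0.139 without the overlapping pairs mt-Atp8 with mt-Atp6 and mt-Nd4l with mt-Nd4. The difference of nuclear minus mitochondrial-encoded medians became 0.122 without those pairs and 0.0927 without nuclear genes with overlapping exons. Leaving out mt-Atp8 and Atp5b, the highest of each set, gave a ratio of Meis2-CKO over control of 0.919 for the mitochondrial-encoded sum and 0.936 for the ratio of that sum to the nuclear one, beside 0.930 and 0.945. The pseudocount and rescaling alternatives use the log2 ratio of the means. That ratio lies below the deposited log2 fold change by a median of 0.012 over genes with a mean of at least 30. Centring subtracts the median of all genes, 0.012, from every value. The cause of the other shifts was not tested beyond fewer genes being summarised. Leaving out each replicate and other normalizations were not run, since they need library values. No paired analysis was possible because the library columns carry no replicate number of the labels. Since the library columns were not used, medians and sums were not set against the spread between embryos, and the authors' p-value of each gene is the one measure here that may hold it.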

Other observations

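Some subunits have symbols outside the name rule. The acyl carrier subunit of complex I, Ndufab1, stood at 149.9 in controls and 150.3 in mutants. The ATP synthase membrane subunits Usmg5 (245 and 231) and 2010107E04Rik (264 and 235) had log2 fold changes of -0.078 and -0.16 in the authors' deposited table, and none of the 3 was called. Atpif1, the inhibitor of the ATP synthase, stood at 313 and 298.

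Near-identical copies elsewhere in the genome were listed for 16 of the 81 nuclear subunits, most of them processed pseudogenes at low signal. The copy with the highest signal was Gm6969 (139 in control, 137 in Meis2-CKO), which is identical to Cox7a2l over 201 of 402 coding bases and stood above Cox7a2l itself (112 and 108). Others above 10 were Gm3244, a copy of Ndufb4 (22.6 and 22.8), Gm15920, a copy of Ndufa12 (17.1 and 17.6), and Gm5436, a copy of Atp5o (15.04 and 14.3). Gm28439, the nuclear copy of part of mt-Nd4, stood at 32.8 and 24.7, with an unadjusted p of 0.0424 in the authors' deposited table, and was not called.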
